A study of Mus musculus with 11 samples.

Results

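The ribosomal S6 kinases are serine/threonine kinases named after the small-subunit ribosomal protein S6, a substrate of several of them. They are signalling enzymes and not ribosomal proteins, although their gene symbols share the letters Rps. The p90 ribosomal S6 kinases (RSK) carry a pair of kinase domains and are switched on by ERK together with PDK1. The mitogen- and stress-activated kinases (MSK) have the same layout, are switched on by ERK or p38, and phosphorylate CREB and histone H3 in the nucleus. The S6K enzymes are switched on by mTORC1 and PDK1 and act on S6 and other proteins of translation. In embryonic stem cells (ESCs), ERK signalling is known for its part in leaving the pluripotent state. The members were chosen by symbol, after Ensembl identifiers were matched to the GRCm38 annotation, and were 10 of the 54838 genes counted. They comprise the RSK genes Rps6ka1, Rps6ka2, Rps6ka3 and Rps6ka6, the MSK genes Rps6ka4 and Rps6ka5, the S6K genes Rps6kb1 and Rps6kb2, and the related genes Rps6kc1 and Rps6kl1. All 10 members had more than 1 CPM (a gene's reads scaled to the total gene count of its library) in at least 4 libraries. This was the filter for testing, passed by 16073 genes.

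RNA was sequenced from E14 mouse ESCs, an established line grown on gelatin with LIF, 36 h after transfection with siRNA. A control scramble siRNA was used for 3 libraries, CMTR1 siRNA 1 for 4 and CMTR1 siRNA 2 for 4. CMTR1 methylates the ribose of the first transcribed nucleotide of capped RNA, and the design asks how transcript levels differ when the enzyme is targeted. Total gene counts per library ran from 6738478 to 8382318, with medians of 7876141 in control, 7526822 with siRNA 1 and 7758091 with siRNA 2. The study's methods call replicates for PCR or sequencing biological, and the labels do not say whether these libraries came from separate cultures. The tests measure the spread between these libraries.

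Cmtr1, the target of both siRNAs, had control values of 21.3, 21.7 and 17.9 CPM. They were 21.1, 21.3, 16.2 and 18.04 CPM for siRNA 1, then 15.6, 16.8, 16.4 and 19.5 CPM for siRNA 2. Each group of siRNA libraries overlapped the control libraries, although 3 of 4 siRNA 2 libraries lay below all of them. The log2 fold change of Cmtr1 was -0.088 with siRNA 1 (SE 0.11, adjusted p = 0.743) and -0.25 with siRNA 2 (SE 0.11, 95% interval -0.463 to -0.0315, adjusted p = 0.144) in edgeR's quasi-likelihood test. Other genes share 69.3% of the 75-nt words of Cmtr1 transcripts, so its counts are an uncertain measure of the transcript. The counts thus did not show a lower target transcript at the threshold used, and the groups below are libraries labelled siRNA 1 or siRNA 2. The study itself reports that CMTR1 drops rapidly once its siRNAs are transfected, and lists both siRNAs for western blot.

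Markers fixed for ESCs were high in every library. The summed CPM of 8 ESC markers was 1676, 1762 and 1691 in control, 1373, 1435, 1576 and 1513 in the libraries labelled siRNA 1, and 1521, 1508, 1500 and 1581 in those labelled siRNA 2. Every siRNA library was therefore below every control library in this sum, in which Pou5f1 was the most abundant gene. All 8 genes had lower means than control with each siRNA, by uneven amounts. With siRNA 1 and siRNA 2, Pou5f1 was at 434 and 473 CPM against 484, and Tdgf1 at 260 and 286 against 288. Nanog was at 57.8 and 58.8 CPM against 85.7, Esrrb at 119 and 104 against 152, and Klf4 at 44.8 and 38.7 against 59.2. The sum of 4 neural markers, led by Nes, moved the other way, with 151.9, 151.0 and 152.0 CPM in control and 159.7 to 191.4 CPM in the siRNA libraries. Not all 4 genes were higher. For siRNA 2 the mean of Nes was 83.8 CPM against 61.6 in control, while Pax6 was at 8.44 against 10.4, Sox1 at 32.8 against 32.1 and Tubb3 at 47.9 against 47.6. For siRNA 1, Nes (73.6 CPM), Sox1 (38.4) and Pax6 (13.5) had higher means than control and Tubb3 (47.0) did not. Low sums were found for 5 fibroblast or feeder markers (21.7 to 35.2 CPM, led by Col1a2), 4 endoderm markers (11.4 to 20.4 CPM, led by Gata6) and 3 mesoderm markers (5.82 to 8.46 CPM, led by Eomes), and Postn was at 0 CPM in each siRNA group. The feeder sum was nevertheless higher in every siRNA 2 library (29.7 to 35.2 CPM) than in every control (21.7 to 25.8 CPM) or siRNA 1 library (22.5 to 26.0 CPM), with means of 14.5 CPM for Col1a1 (8.65 in control), 13.4 for Col1a2 (10.8), 4.15 for Thy1 (3.33) and, in the other direction, 0.596 for Col3a1 (1.58). The part of these shifts in the values of the kinase genes was not tested. In bulk RNA, fewer cells of a type and less RNA per cell cannot be told apart.

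In control ESCs, the RSK genes made up most of the S6 kinase transcript pool. As a level per kilobase of exon (CPM divided by the length of the union of a gene's exons), the 4 RSK genes summed to 66.7 ± 2.66 (SD, n = 3), or 69.4 ± 1.29% of the total over the 10 genes. The S6K genes held 18.0 ± 1.31%, the MSK genes 5.50 ± 0.317%, and Rps6kc1 with Rps6kl1 7.09 ± 0.437%. Shares in the libraries labelled siRNA 1 were 68.4 ± 0.524% for RSK, 18.8 ± 0.454% for S6K and 5.45 ± 0.389% for MSK (n = 4). With siRNA 2 they were 69.5 ± 1.38%, 18.1 ± 1.10% and 5.80 ± 0.245% (n = 4). The ranges of the RSK share overlapped between all 3 groups, at 68.0 to 70.4%, 68.0 to 69.1% and 67.9 to 70.9%. Rps6kc1 with Rps6kl1 held 7.4 ± 0.113% with siRNA 1 (7.24 to 7.49%) and 6.58 ± 0.319% with siRNA 2 (6.29 to 7%). Those ranges of the siRNAs did not overlap each other, while the control range (6.6 to 7.43%) overlapped both.

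Rps6ka1, which encodes RSK1, had the highest level per kilobase in control, 40.5 ± 2.65 (n = 3), at percentile 92.9 of all genes tested. Rps6ka6 (RSK4) followed at 16.3 ± 0.154 and Rps6kb1 (S6K1) at 13.4 ± 0.709. These 3 genes did not overlap each other in the control libraries, and their order was the same in all 11 libraries. Then came Rps6ka2 (RSK3) at 5.06 ± 0.374, Rps6ka3 (RSK2) at 4.86 ± 0.533 and Rps6kc1 at 4.56 ± 0.156, neighbours whose control libraries overlapped. The order of Rps6ka2 and Rps6ka3 was not stable, since Rps6ka2 was the higher of the pair in 2 of 11 libraries. Their control values per kilobase were 4.63, 5.22 and 5.33 for Rps6ka2 and 5.00, 5.31 and 4.27 for Rps6ka3, so that Rps6ka2 ranked higher through control replicate 3. Lower levels were found for Rps6kb2 (S6K2) at 3.88 ± 0.305 and Rps6ka4 (MSK2) at 3.48 ± 0.333, which overlapped each other. Rps6kl1 was at 2.25 ± 0.235 and Rps6ka5 (MSK1) was lowest at 1.80 ± 0.0235, at percentile 29.6, and their control libraries did not overlap, although the order held in 7 of 11 libraries. With the longest transcript as the length, Rps6kb1 (20.9) ranked above Rps6ka6 (19.6), Rps6kc1 (9.26) above Rps6ka3 (5.58) and Rps6ka5 (3.82) above Rps6kl1 (3.30), while Rps6ka2 (9.34) kept its place and Rps6ka1 stayed first at 55.0.

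**Figure D1:**
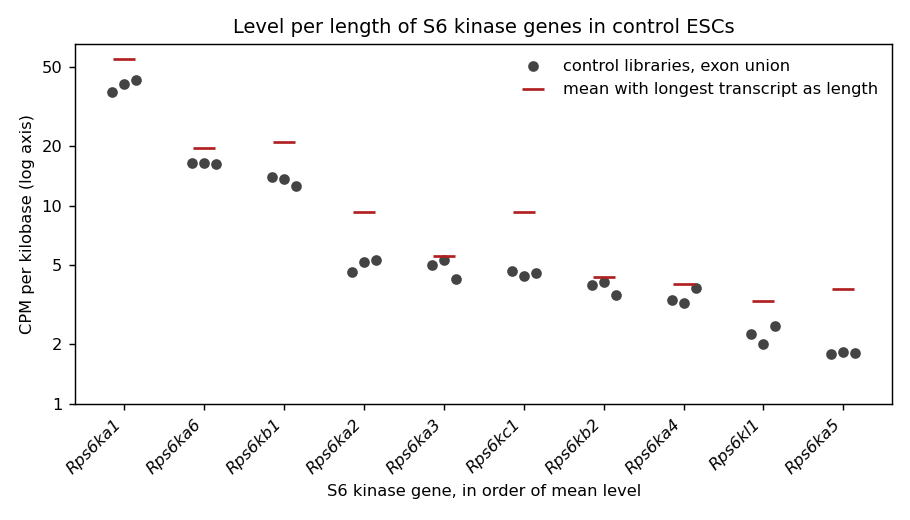
Level of each S6 kinase gene per kilobase (CPM per kilobase, log axis) in the 3 control libraries (points, union of exons as length), in order of mean level, with the mean obtained when the longest transcript is the length (red dashes). Rps6ka1 stands highest at 40.5, and Rps6ka2, Rps6ka3 and Rps6kc1 lie close together between 4.27 and 5.33.

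Reads of some members may be shared with other genes. The exons of Rps6ka4 overlap those of a gene on the same strand over 19.8% of their length, and those of Rps6kb2 overlap Coro1b or Ptprcap on the other strand over 23.7%. Rps6ka2 shares 15% of its 75-nt words with 12 other genes, although none of its exons overlaps another gene. For Rps6ka3, Rps6ka6, Rps6kc1 and Rps6kl1 no 75-nt word was shared with another gene. The libraries were directional, but the sources used here do not state whether counting used the strand. This bears on Rps6kb2 and, over less of their exon length, on Rps6ka1 (5.8%) and Rps6kb1 (1.79%), which overlap genes on the other strand.

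The first transcribed base is the one whose ribose CMTR1 methylates, and annotated starts are therefore shown for the 4 members that the results below turn on and for Rps6, which encodes their namesake substrate. The sequences are from the RefSeq promoter table of GRCm38, in which 8 of the 10 members were found, with 11 starts. Rps6ka3 and Rps6kb2 were not among them. The table holds 3 starts for Rps6ka1 and 2 for Rps6ka6, of which the first is shown; the second Rps6ka6 start begins with A. Each line gives 30 bases, 5′ to 3′ on the gene's strand, with the annotated first transcribed base in capitals.
Rps6ka1 (chr4:133887783-133887812, minus strand): ggcgccgggtgacggAgcgagccgaagtgc
Rps6ka2 (chr17:7170100-7170129, plus strand): gggcggggcaggttgCcgggagctggtact
Rps6ka6 (chrX:111537945-111537974, minus strand): tgaacagacgttctcTgcttgagccacttc
Rps6ka4 (chr19:6840613-6840642, minus strand): aggcggcaccaggaaGcacccgccccggcc
Rps6 (chr4:86857353-86857382, minus strand): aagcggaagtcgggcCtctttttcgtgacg
A start of the terminal oligopyrimidine kind, searched as a C at the first base followed by 4 bases that are each C or T on the gene's strand, was present at Rps6. None of the 11 starts of the S6 kinase genes matched it, against 15 of 82 starts (18.3%) of 70 cytosolic ribosomal protein genes and 823 of all 32851 RefSeq starts (2.51%). Annotated starts can be off by some bases, and the start used in these cells was not measured.

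In the libraries labelled siRNA 1, no S6 kinase gene passed a false discovery rate (FDR, the Benjamini-Hochberg adjusted p over all genes tested) of 0.05 against control in edgeR's quasi-likelihood test. The background was 751 of 16073 genes (4.67%), 316 lower and 435 higher, a split that turned over with TMM factors (400 and 346) and DESeq2 (322 and 199). At an unadjusted p under 0.05 there was 1 of 10 members, Rps6ka1, beside 2698 of 16073 genes, and DESeq2 and edgeR's exactTest also called 0 members. The members' log2 fold changes ran from -0.19 to 0.18 with a median of -0.051, and 6 of 10 were below 0, against a median of 0.024 and 43.2% below 0 for all genes tested. Without siRNA 1 replicate 1 the members' median was -0.0038. For 2 of 10 members, Rps6kb2 and Rps6kc1, the siRNA 1 libraries were apart from the control libraries, as they were for 15.5% of all genes.

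In the libraries labelled siRNA 2, 1 of 10 members was called against control, Rps6ka2, which was lower. This share is close to the background of 1562 of 16073 genes (9.72%), 571 lower and 991 higher, where TMM factors gave 734 and 728 and DESeq2 549 and 409. At an unadjusted p under 0.05 there were 4 of 10 members, beside 3733 of all genes tested. Log2 fold changes of the members ran from -0.31 to 0.20 with a median of 0.054, and 2 of 10 were below 0, against a median of 0.029 and 42.9% below 0 for all genes. The members' median was 0.030 with TMM factors and 0.027 with DESeq2, where that of all genes was 0.00403 and 4.04e-05. Without siRNA 2 replicate 3 the members' median was 0.030 (0.0269 for all genes). Without siRNA 2 replicate 2 it was 0.081 (0.0277 for all genes). Rps6ka2 was also the 1 member of 10 whose libraries did not overlap, where this held for 19.4% of all genes. The comparisons with siRNA 1 and siRNA 2 share the same 3 control libraries and are not independent.

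Between the siRNAs, 1 of 10 members was called, Rps6ka6, which was higher in the libraries labelled siRNA 2. Of all genes tested, 1196 of 16073 (7.44%) were called in this comparison, 475 lower and 721 higher. An unadjusted p under 0.05 was found for 5 of 10 members and 3395 of all genes. The median over the members was 0.035, with values from -0.20 to 0.33, and the median of all genes was 0.0018. Without siRNA 1 replicate 1 the members' median was 0.021, and without siRNA 2 replicate 4 it was 0.016. Libraries of the siRNAs did not overlap for 2 of 10 members, Rps6ka2 and Rps6ka4, against 11.8% of all genes.

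**Figure D2:**
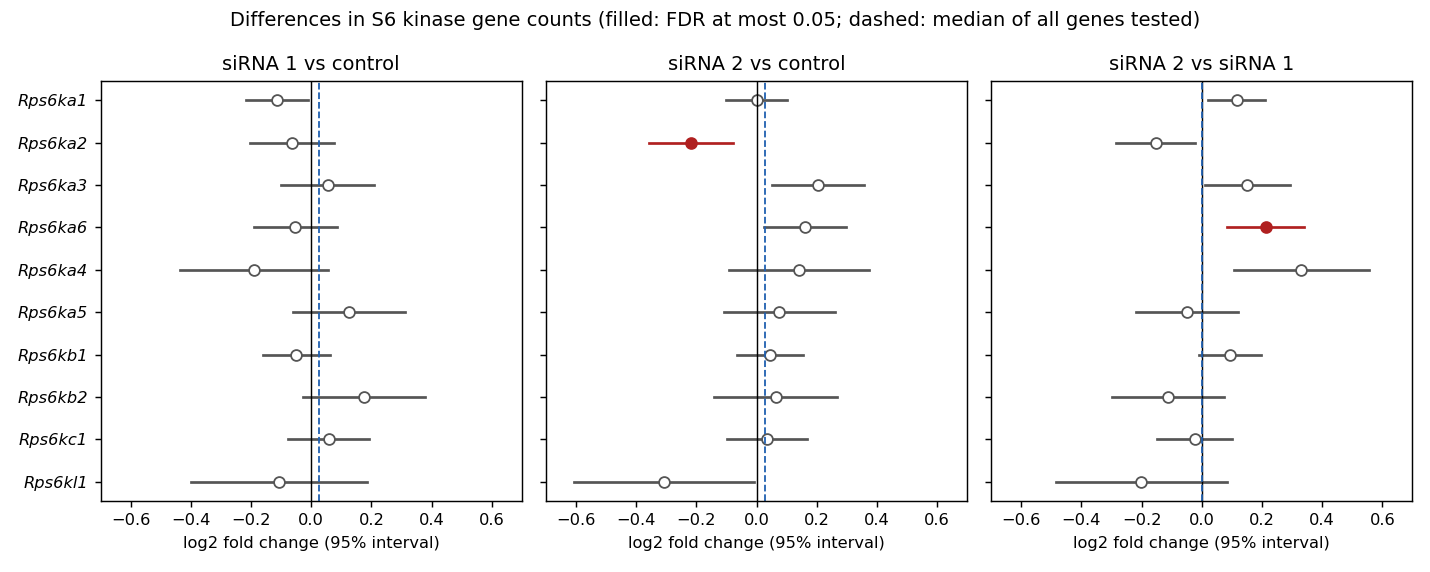
Log2 fold change of each S6 kinase gene (points) with its 95% interval (bars) in the 3 comparisons, from edgeR's quasi-likelihood test over 16073 genes. Filled red points are the genes with an FDR of at most 0.05, Rps6ka2 (-0.22) for siRNA 2 against control and Rps6ka6 (0.21) for siRNA 2 against siRNA 1, and the dashed line is the median of all genes tested.

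Among the RSK genes, Rps6ka1 (ENSMUSG00000003644, chromosome 4, 133847290 to 133887797, minus strand) gave the most reads, 1026 to 1502 per library. RSK1 is a ubiquitous effector of ERK signalling. Rps6ka1 was at 159.98, 174.9 and 182.1 CPM in control, 152.3, 158.9, 163.9 and 161.2 CPM with siRNA 1, and 163.6, 179.2, 170.8 and 175.5 CPM with siRNA 2. For siRNA 1, 2 of 4 libraries lay below all control libraries, and all siRNA 2 libraries lay within the control range. For siRNA 1 against control, Rps6ka1 had a log2 fold change of -0.11 (adjusted p = 0.221, SE 0.051, 95% interval -0.22 to -0.012). Without control replicate 3 it was -0.074 (adjusted p = 0.615), and without control replicate 1 it was -0.17 (adjusted p = 0.0888). For siRNA 2 it was 0.0011 (SE 0.050, 95% interval -0.1 to 0.102, adjusted p = 0.994), a value whose sign changed with TMM factors (-0.024), with DESeq2 (-0.028) and with replicate number as a block (-0.0068). The difference between the siRNAs was 0.12 (SE 0.047, adjusted p = 0.131).

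Rps6ka2 (ENSMUSG00000023809, chromosome 17, 7170115 to 7303315, plus strand) encodes RSK3. It was at 46.2, 52.0 and 53.2 CPM in control, 44.97, 49.5, 46.9 and 51.5 CPM with siRNA 1, and 41.2, 42.7, 44.89 and 44.7 CPM with siRNA 2. All 4 siRNA 2 libraries lay below all control and all siRNA 1 libraries, the nearest pair being 44.97 CPM for siRNA 1 and 44.89 for siRNA 2. From 290 to 422 reads per library, the mean was 50.5 ± 3.73 CPM in control (SD, n = 3), 48.2 ± 2.85 with siRNA 1 (n = 4) and 43.4 ± 1.76 with siRNA 2 (n = 4). The siRNA 2 log2 fold change was -0.22 (SE 0.069, 95% interval -0.36 to -0.077, adjusted p = 0.0382 in edgeR). With siRNA 1 it was -0.064 (SE 0.069, adjusted p = 0.705), and between the siRNAs -0.15 (SE 0.065, adjusted p = 0.154). The call with siRNA 2 was kept with TMM factors (-0.24, adjusted p = 0.0184) and DESeq2 (-0.25, adjusted p = 0.0415). It was lost without the filter on low counts (adjusted p = 0.0604) and without control replicate 2 (-0.19, adjusted p = 0.161), control replicate 3 (-0.18, adjusted p = 0.195), siRNA 2 replicate 1 (-0.19, adjusted p = 0.113) or siRNA 2 replicate 2 (-0.21, adjusted p = 0.0776), in a range of adjusted p from 0.0166 to 0.195 over 18 alternatives.

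Rps6ka3 (ENSMUSG00000031309, chromosome X, 159210307 to 159368244, plus strand) encodes RSK2, whose loss in humans causes Coffin-Lowry syndrome. It was at 41.6, 44.2 and 35.5 CPM in control, 39.2, 44.4, 45.6 and 38.9 CPM with siRNA 1, and 49.2, 46.4, 43.9 and 47.4 CPM with siRNA 2. In the libraries labelled siRNA 2, 3 of 4 lay above all control libraries and the fourth just below the highest of them. The siRNA 2 log2 fold change was 0.20 (SE 0.076, 95% interval 0.052 to 0.36), which did not pass the threshold (adjusted p = 0.0784). Without control replicate 3 it was 0.12 (adjusted p = 0.441, in a range from 0.0506 to 0.441 over 18 alternatives). With siRNA 1 it was 0.054 (SE 0.077, adjusted p = 0.791), and between the siRNAs 0.15 (SE 0.070, adjusted p = 0.199). Per kilobase, the mean levels of Rps6ka2 and Rps6ka3 were 5.06 and 4.86 in control. They were 4.83 and 5.05 for siRNA 1 and 4.35 and 5.62 for siRNA 2.

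Rps6ka6 (ENSMUSG00000025665, chromosome X, 111388192 to 111537959, minus strand) encodes RSK4, the RSK with the most restricted expression across adult tissues. Its control libraries were close together, at 82.4, 81.9 and 80.9 CPM. The siRNA libraries were at 70.9, 75.03, 87.96 and 80.99 CPM with siRNA 1 and 95.9, 89.6, 78.6 and 101.01 CPM with siRNA 2. The coefficient of variation was 0.942% in control, 9.41% with siRNA 1 and 10.6% with siRNA 2, where counting error alone gives 3.96, 4.12 and 3.76%. The control spread was thus smaller than counting error, and with 3 libraries it is no measure of the usual spread. In the siRNA 2 group, 3 of 4 libraries lay above all others, while replicate 3 fell within the siRNA 1 range. The difference of siRNA 2 from siRNA 1 was 0.21 on the log2 scale (SE 0.063, 95% interval 0.085 to 0.34, adjusted p = 0.029 in edgeR). Neither siRNA differed from control at the threshold, with 0.16 for siRNA 2 (SE 0.068, adjusted p = 0.133) and -0.053 for siRNA 1 (SE 0.069, adjusted p = 0.769). The call between the siRNAs was lost with DESeq2 (adjusted p = 0.0786) and without siRNA 1 replicate 1 (0.17, adjusted p = 0.135), siRNA 1 replicate 2 (0.19, adjusted p = 0.113), siRNA 2 replicate 1 (0.19, adjusted p = 0.101) or siRNA 2 replicate 4 (0.16, adjusted p = 0.155), in a range from 0.00218 to 0.155 over 18 alternatives. Without siRNA 2 replicate 3 the gene was called against control as well (0.22, adjusted p = 0.0192). Without siRNA 2 replicate 4 that difference from control was 0.11 (adjusted p = 0.379). With a library left out, the siRNA 1 value ran from -0.11 to -0.0083.

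The MSK genes had few reads. Rps6ka4 (ENSMUSG00000024952, chromosome 19, 6829085 to 6840636, minus strand) encodes MSK2 and had 75 to 120 reads per library. It was at 12.1, 11.6 and 13.9 CPM in control, 12.02, 11.6, 10.2 and 10.02 CPM with siRNA 1, and 13.2, 14.3, 13.6 and 13.8 CPM with siRNA 2. All siRNA 2 libraries lay above all siRNA 1 libraries, and the control libraries overlapped each of the 2 siRNA groups. Between the siRNAs the difference was 0.33 (SE 0.111, 95% interval 0.108 to 0.555), which did not pass the threshold (adjusted p = 0.0566). Compared with control, Rps6ka4 gave -0.19 for siRNA 1 (SE 0.12, adjusted p = 0.455) and 0.14 for siRNA 2 (SE 0.12, adjusted p = 0.494). Without control replicate 3 these values were -0.11 and 0.22, and without control replicate 2 they were -0.24 and 0.089.

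Rps6ka5 (ENSMUSG00000021180, chromosome 12, 100548439 to 100726983, minus strand) encodes MSK1. It was at 21.2, 21.7 and 21.7 CPM in control, 20.8, 24.1, 24.6 and 24.3 CPM with siRNA 1, and 21.02, 22.1, 24.9 and 22.7 CPM with siRNA 2. In each siRNA group 3 of 4 libraries were above the control libraries and replicate 1 was below them. The coefficient of variation in control was 1.3%, where counting error alone gives 7.72%. The narrow control range is thus no measure of the usual spread. The log2 fold changes were 0.13 with siRNA 1 (SE 0.092, adjusted p = 0.532) and 0.076 with siRNA 2 (SE 0.092, adjusted p = 0.675), neither passing the threshold. The siRNA 2 value was 0.029 without siRNA 2 replicate 3 and 0.11 without siRNA 2 replicate 1.

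**Figure D3:**
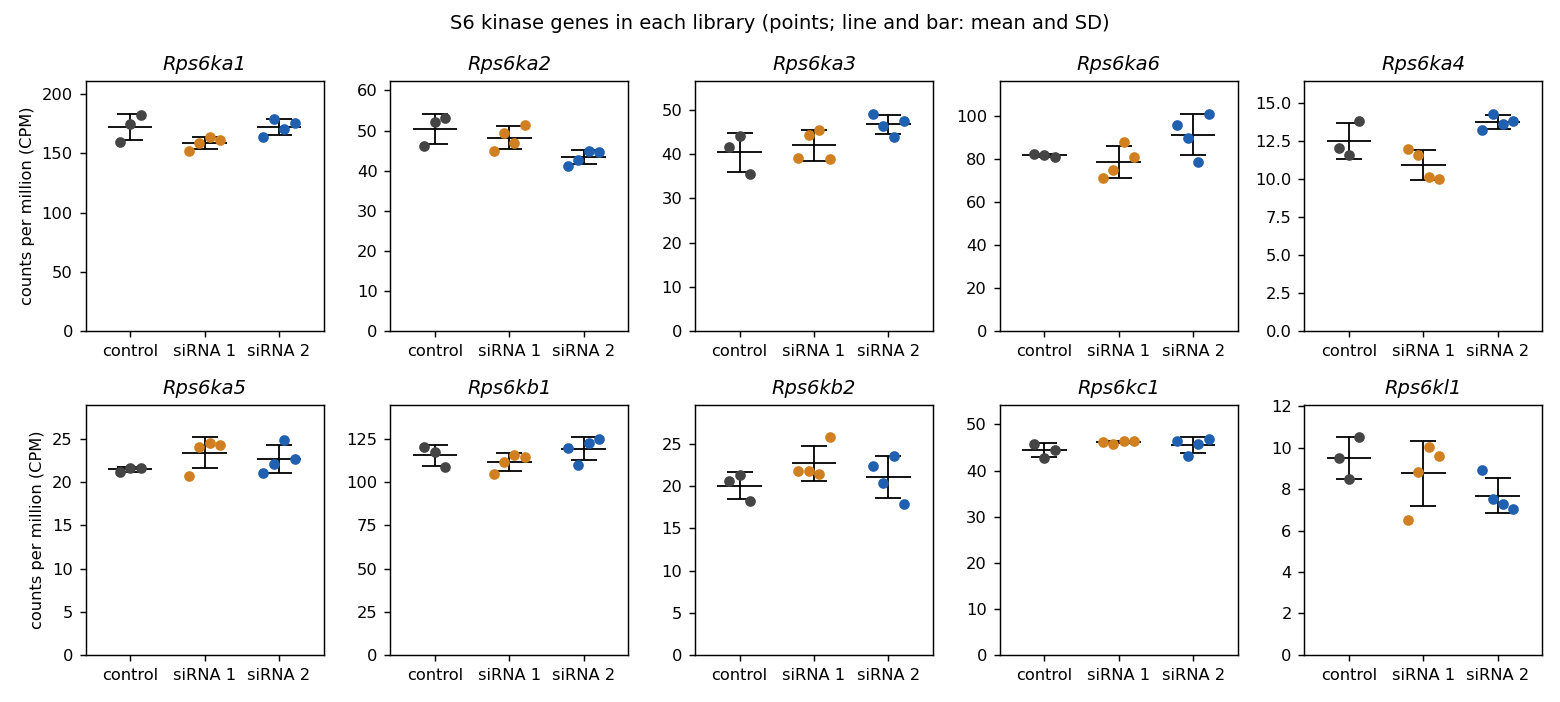
CPM of the 10 S6 kinase genes in each of the 11 libraries (points), by group, with the group mean and SD (line and bar); each vertical axis starts at 0. Rps6ka2 lies lower in the 4 siRNA 2 libraries (41.2 to 44.9 CPM) than in control (46.2 to 53.2 CPM), and Rps6ka6 is tight in control and spread in the siRNA groups.

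Of the S6K genes, Rps6kb1 (ENSMUSG00000020516, chromosome 11, 86498871 to 86544805, minus strand) encodes S6K1, the main mTORC1-dependent kinase of S6. It was at 120.6, 117.4 and 108.7 CPM in control, 104.6, 111.7, 116.0 and 114.5 CPM with siRNA 1, and 119.9, 110.1, 123.0 and 124.7 CPM with siRNA 2. The groups overlapped throughout. With 705 to 1010 reads per library, its intervals were among the narrowest of the members, -0.16 to 0.063 around -0.049 with siRNA 1 (adjusted p = 0.724) and -0.066 to 0.16 around 0.045 with siRNA 2 (adjusted p = 0.677).

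Rps6kb2 (ENSMUSG00000024830, chromosome 19, 4153991 to 4163354, minus strand) encodes S6K2, a second kinase downstream of mTORC1. It was at 20.6, 21.3 and 18.3 CPM in control, 21.8, 21.8, 21.4 and 25.8 CPM with siRNA 1, and 22.4, 20.4, 23.6 and 17.9 CPM with siRNA 2. The siRNA 1 libraries were all above the control libraries, the lowest at 21.40 against a control value of 21.34, and the siRNA 2 libraries spread to either side. For siRNA 1 the difference from control was 0.18 on the log2 scale (adjusted p = 0.386, SE 0.1, 95% interval -0.027 to 0.378). Without siRNA 1 replicate 4 it was 0.11, and without control replicate 3 it was 0.12. For siRNA 2 it was 0.063 (adjusted p = 0.767), with 0.0033 without control replicate 3 and 0.14 without siRNA 2 replicate 4.

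Rps6kc1 (ENSMUSG00000089872, chromosome 1, 190700202 to 190911770, minus strand) encodes a protein with a PX lipid-binding domain and an S6 kinase-like domain. Its values were 45.8, 42.8 and 44.5 CPM in control, 46.2, 45.9, 46.5 and 46.4 CPM with siRNA 1, and 46.3, 43.1, 45.7 and 46.9 CPM with siRNA 2. Its group means were close together, at 44.4, 46.2 and 45.5 CPM. The siRNA 1 libraries lay just above control, with a log2 fold change of 0.058 (SE 0.067, adjusted p = 0.725), and siRNA 2 gave 0.035 (SE 0.066, adjusted p = 0.81). The nearest pair was 45.86 CPM for siRNA 1 and 45.83 for control. The coefficient of variation with siRNA 1 was 0.598%, where counting error alone gives 5.39%.

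Rps6kl1 (ENSMUSG00000019235, chromosome 12, 85135249 to 85151264, minus strand) encodes an S6 kinase-like protein and had 44 to 78 reads per library. It was at 9.52, 8.51 and 10.5 CPM in control, 6.53, 8.85, 10.04 and 9.62 CPM with siRNA 1, and 8.95, 7.52, 7.28 and 7.04 CPM with siRNA 2. In the libraries labelled siRNA 2, 3 of 4 were below all control libraries. The log2 fold change with siRNA 2, -0.31, was the largest in size of any member against control, but its interval was wide (SE 0.15, 95% interval -0.61 to -0.0080, adjusted p = 0.2). With siRNA 1 it was -0.11 (SE 0.15, adjusted p = 0.78). At this depth counting error alone gives a coefficient of variation of 11.6 to 13.0%, and the value did not pass the threshold.

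The members did not vary as a block across the 11 libraries. Pearson r of log2 CPM, given as a description that includes the differences between groups, ran from -0.67 for Rps6ka2 with Rps6ka3 to 0.64 for Rps6ka3 with Rps6ka6. Rps6ka6 and Rps6kb1 had r = 0.60, and Rps6ka1 and Rps6ka4 r = 0.59. Among 8244 genes with a mean log2 CPM of at least 4, those most like Rps6ka6 over the 11 libraries included Cct6a (r = 0.98) and Psmd12 (0.94). For Rps6ka2 they were Kdm4a, C2cd5 and Tmem231 (each r = 0.92), and for Rps6ka1 Polr2c (0.92), Steap2 and Ncoa3 (each 0.91). High values are found by searching this many genes over few libraries.

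The gene lists below were chosen with earlier results of these data known, and were not matched to all genes in read count. Their shares called are given beside those of all genes as a description, and enrichment was not tested. Upstream of RSK and MSK, 20 genes of the Ras-ERK and p38 pathways were tested. With siRNA 1, 2 were called (1 lower, 1 higher; median -0.035), and with siRNA 2, 2 were called (both higher; median 0.025), so that 10.0% passed in each comparison, against 4.67% of all genes for siRNA 1 and 9.72% for siRNA 2. Mapk3, which encodes the ERK1 kinase that activates RSK, rose from a mean of 59.9 CPM to 77.9 with siRNA 1 (log2 fold change 0.38, adjusted p = 0.000146) and to 74.1 with siRNA 2 (0.31, adjusted p = 0.00137). All 8 siRNA libraries were above the 3 control libraries for Mapk3, and the call was kept in each of 18 alternatives per siRNA. Pdpk1, which encodes the PDK1 kinase that acts on RSK and S6K, fell with siRNA 1 (-0.26, adjusted p = 0.00478) and was at -0.032 with siRNA 2 (adjusted p = 0.795). The siRNAs differed by 0.22 (adjusted p = 0.00661), a call lost without siRNA 1 replicate 1 (adjusted p = 0.0558), and the call with siRNA 1 was lost without control replicate 2 (adjusted p = 0.0814). Shc1, an adaptor between receptors and Ras, rose with siRNA 2 (0.23, adjusted p = 0.00175) and was at 0.13 with siRNA 1 (adjusted p = 0.125). Between the siRNAs, 3 of the 20 genes were called (15%, beside 7.44% of all genes), all higher with siRNA 2, Pdpk1, the adaptor Grb2 (0.22, adjusted p = 0.00684) and the kinase Braf (0.14, adjusted p = 0.0227). Against control, Grb2 was at -0.18 for siRNA 1 (adjusted p = 0.0571), with all siRNA 1 libraries below control, and passed the threshold with TMM factors, DESeq2 and a fit of the 2 groups, in a range of adjusted p from 0.0314 to 0.25 over 18 alternatives. For siRNA 2 it was at 0.037 (adjusted p = 0.753). The call of Braf was lost without any of 4 single libraries, siRNA 1 replicates 1 and 2 and siRNA 2 replicates 1 and 4, with adjusted p up to 0.0795.

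Upstream of S6K, 27 genes of the PI3K-mTORC1 pathway were tested. The counts called were 4 with siRNA 1 (3 lower, 1 higher; 14.8%, median 0.032) and 5 with siRNA 2 (3 lower, 2 higher; 18.5%, median -0.032). Over all genes tested, 4.67% with a median of 0.024 and 9.72% with a median of 0.029 were found in these comparisons. Akt1s1, which encodes the mTORC1 inhibitor PRAS40, was at 46.2, 46.3 and 43.1 CPM in control and at 34.4 to 40.2 CPM in the siRNA libraries. It fell with siRNA 2 (-0.37, adjusted p = 0.000326), in each of 18 alternatives, and with siRNA 1 (-0.24, adjusted p = 0.0277), where the call was lost without the filter on low counts, or without control replicate 1 or 2, or siRNA 1 replicate 2 or 4 (adjusted p up to 0.145). Of the 4 genes of the Rag GTPases, which bring mTORC1 to the lysosome, 2 were called for siRNA 2, in opposite directions. Rraga rose with siRNA 2 (0.33, adjusted p = 0.000874) and Rragd fell (-0.23, adjusted p = 0.00993), while siRNA 1 gave 0.057 for Rraga (adjusted p = 0.748) and 0.10 for Rragd (adjusted p = 0.402). The siRNAs differed for Rraga by 0.27 (adjusted p = 0.00391) and for Rragd by -0.33 (adjusted p = 8.3e-05), and Rragd lost its call against control without control replicate 2 or 3 (adjusted p up to 0.0826). Deptor, which encodes another inhibitor of mTOR, fell with siRNA 2 (-0.24, adjusted p = 0.0139), a call lost without control replicate 2 or 3 or siRNA 2 replicate 1 (adjusted p up to 0.0794). With siRNA 1 it was at -0.16 (adjusted p = 0.18), with all libraries below control, and the difference between the siRNAs was -0.082 (adjusted p = 0.5). Between the siRNAs 4 of the 27 genes were called (14.8%, beside 7.44% of all genes). Of the genes outside the naming rule, chosen here after their values were seen, Rragc was called with siRNA 1 (-0.28, adjusted p = 0.0163) and between the siRNAs (0.23, adjusted p = 0.0289), and Lamtor5 with siRNA 2 (0.32, adjusted p = 0.0479).

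Of 11 genes encoding S6K substrates, 2 were called with each siRNA (18.2%), Gsk3b higher and Eif4b lower in both cases. Gsk3b, whose kinase product is inhibited by AKT, RSK and S6K, rose by 0.37 with siRNA 1 (adjusted p = 1.48e-05) and by 0.21 with siRNA 2 (adjusted p = 0.01). Eif4b, a translation factor phosphorylated by S6K and RSK, was at 681.9, 715.4 and 692.1 CPM in control and at 577.7 to 624.6 CPM in the siRNA libraries. The log2 fold changes of Eif4b were -0.22 (adjusted p = 0.000444) and -0.19 (adjusted p = 0.00195), and both calls were kept in each of 18 alternatives. The call of Gsk3b with siRNA 2 was lost without control replicate 3 (adjusted p = 0.0976). Of 16 genes encoding RSK and MSK substrates, which include Gsk3b and Eif4b, 4 were called with each siRNA (25.0%; 1 lower, 3 higher). The share of all genes called was 4.67% for siRNA 1 and 9.72% for siRNA 2. Dapk1, a death-associated kinase, was higher with siRNA 1 (0.19, adjusted p = 0.0455) and siRNA 2 (0.25, adjusted p = 0.00292), the first call being lost with TMM factors, DESeq2 and without control replicate 2 or 3 or siRNA 1 replicate 1 or 2 (adjusted p up to 0.31) and the second without control replicate 2 (adjusted p = 0.052). Atf1, a CREB-family factor, was called higher with siRNA 2 (0.20, adjusted p = 0.0267) and Tsc2, an inhibitor of mTORC1 through Rheb, with siRNA 1 (0.17, adjusted p = 0.0225). Both calls were lost with TMM factors and DESeq2. That of Atf1 was also lost without control replicate 1 or 3 or siRNA 2 replicate 1 or 2 (adjusted p up to 0.142). That of Tsc2 was also lost without any control replicate or siRNA 1 replicate 1, 2 or 4 (adjusted p up to 0.105).

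Among 23 related kinases of the AGC and MAPK-activated groups, 2 were called with siRNA 1 (both lower; 8.70%) and 5 with siRNA 2 (3 lower, 2 higher; 21.7%), beside 4.67% and 9.72% of all genes. The lists share genes. Pdpk1, called lower with siRNA 1, is counted here and in both upstream lists. Tsc2, called higher with siRNA 1, is counted in the PI3K-mTORC1 list and among the RSK and MSK substrates. Sgk1, a kinase closely related to S6K and regulated by mTORC2 and PDK1, was at 176.1, 178.1 and 175.0 CPM in control and at 130.6 to 161.4 CPM in the siRNA libraries. It fell by 0.29 with siRNA 1 (adjusted p = 0.000312) and by 0.24 with siRNA 2 (adjusted p = 0.00164) on the log2 scale, and kept both calls in each of 18 alternatives. Pkn3 (-0.33, adjusted p = 0.0235), Lats1 (0.20, adjusted p = 0.0249) and Lats2 (0.69, adjusted p = 0.0318), which had 17 to 39 reads per library, were called with siRNA 2, and each call was lost in 5 to 7 of 18 alternatives, among them the fits without control replicate 2 or 3. Over the alternatives the adjusted p ran up to 0.0897 for Pkn3, 0.119 for Lats1 and 0.166 for Lats2. The calls were also lost with TMM factors, DESeq2 and no filter for Lats1, with DESeq2 for Lats2, and in the blocked fit for Pkn3. Further libraries whose absence removed a call were siRNA 2 replicates 1, 2 and 4 for Pkn3, control replicate 1 and siRNA 2 replicate 4 for Lats1, and siRNA 2 replicates 1 and 4 for Lats2.

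The 84 cytosolic ribosomal protein genes tested, which share the Rps and Rpl symbols, were mostly below 0. The list was drawn by symbol, as was that of the starts above, and so takes in like-named genes such as Rpl10l and Rpl22l1. The 4 called with siRNA 1 were Rplp0, Rpl13a, Rpl10l and Rpl22l1. With siRNA 1, 81 of 84 (96.4%) had a log2 fold change below 0, with a median of -0.068 and 4 called, all lower (4.76%, where 4.67% of all genes were called and 43.2% were below 0). With siRNA 2, 80 of 84 (95.2%) were below 0, with a median of -0.085 and 20 called, all lower (23.8%, where 9.72% of all genes were called and 42.9% were below 0). The S6 kinase genes had 6 and 2 of 10 below 0 in the same comparisons. The difference between these lists was not tested.

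**Figure D4:**
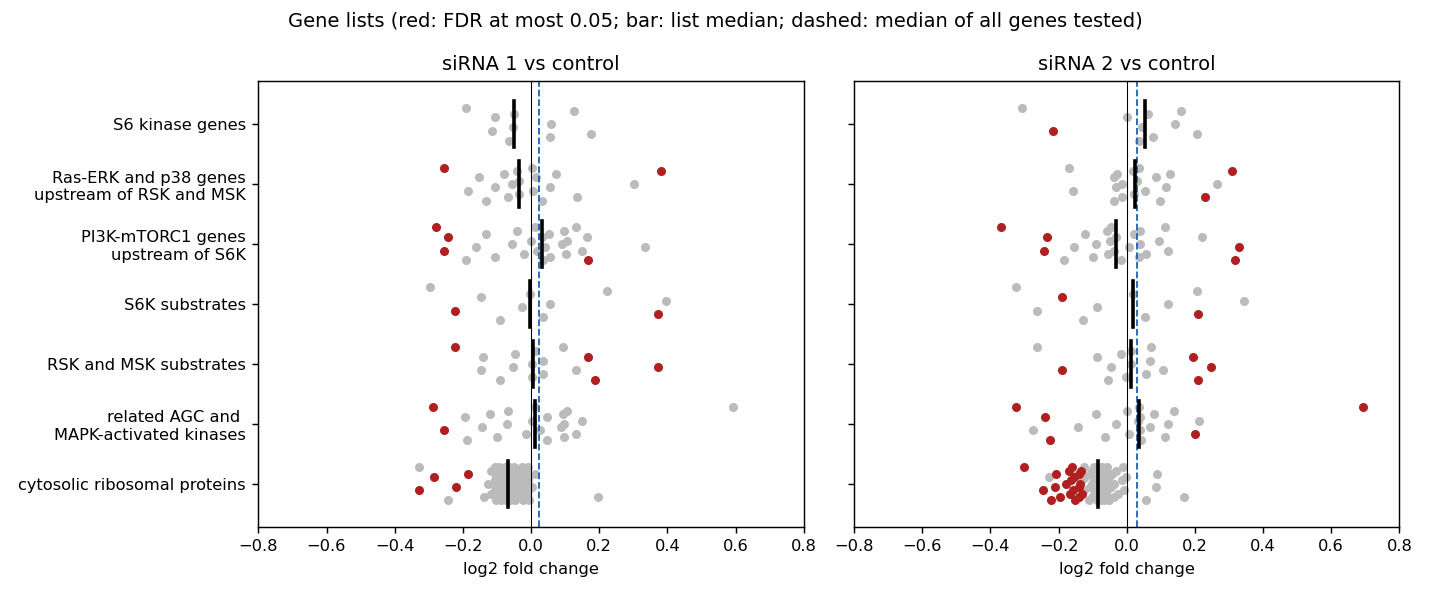
Log2 fold change of each tested gene (points) by list, for each siRNA against control, with genes at an FDR of at most 0.05 in red, the list median as a bar and the median of all genes tested as a dashed line; vertical position within a list has no meaning. Ribosomal protein genes cluster below 0, with medians of -0.068 and -0.085, while the S6 kinase genes spread to both sides.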

How the data were processed

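The authors deposited raw read counts per gene from directional, rRNA-depleted libraries of total RNA. According to the study's methods, Cutadapt removed adaptors, STAR mapped reads to GRCm38, Picard took out duplicates, and the submitters' notes name featureCounts. Summary lines that name no gene, present for 10 of 11 libraries (5314618 to 6998875 reads in no feature, 137308 to 164565 ambiguous, 787556 to 974693 not unique), were set aside. They have the layout of HTSeq-count, not of featureCounts, so how overlapping and multi-mapped reads were counted is not certain. Symbols and exon lengths are from GENCODE M21, which holds 54723 of the 54838 identifiers.

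Genes with more than 1 CPM in at least 4 libraries were tested with edgeR 4.0.16 (R 4.3.3; glmQLFit and glmQLFTest) on a model of 3 groups, with total counts as library sizes, and called at a Benjamini-Hochberg FDR of 0.05. Alternatives were TMM factors, DESeq2 1.42.0, exactTest, no filter, filterByExpr, a fit of the 2 groups compared, replicate number as a block, the longest transcript as length, and each replicate left out. The 6 lists were Ras-ERK and p38 genes, PI3K-mTORC1 genes, S6K substrates, RSK and MSK substrates, related AGC and MAPK-activated kinases, and cytosolic ribosomal proteins. Members and lists were chosen with earlier results of these data known. Named are all 10 members, Cmtr1 and, from each pathway list, at most 5 genes with an FDR of at most 0.05 and non-overlapping libraries in a comparison, lowest FDR first. For called members and the member of highest level per length, the 3 genes of highest correlation were found. Some of the genes these rules or counts cover are not reported here. Replicate pairs were checked, with chi-square per degree of freedom of 1.35 to 3.21. The 95% intervals of log2 fold changes come from the quasi-likelihood F test, so they include the spread between libraries. The tests were also run on simulated data, and no result of that run is given or used here.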

Additional observations from a re-analysis of the deposited data

Results flagged for a closer look

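In 7 of 78 groups of 4 libraries examined, 1 library stood apart from the other 3, where chance gives about 1 in 20 groups, or 3.9. For the S6 kinase genes these were Rps6ka5 in siRNA 1 replicate 1 (20.78 CPM, below the other 3) and Rps6kb2 in siRNA 1 replicate 4 (25.8 CPM, above the other 3). Among other genes they were Rragd in siRNA 1 replicate 2 (95.71 CPM), Eif4b in siRNA 2 replicate 3 (583.7 CPM), Tsc2 in siRNA 1 replicate 3 (210 CPM) and Pkn3 in siRNA 2 replicate 3 (21.44 CPM). The sum of fibroblast or feeder markers was low in siRNA 1 replicate 4 (22.45 CPM).

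The difference between the siRNAs was itself tested with edgeR. It passed the FDR threshold for 1 S6 kinase gene, Rps6ka6, at a log2 difference of 0.21 (siRNA 2 minus siRNA 1). Differences above 0 were also found for Pdpk1 (0.22), Grb2 (0.22), Braf (0.14), Rraga (0.27) and Atf1 (0.19). Those of Rragd (-0.33) and Gsk3b (-0.16) were below 0. The call of Gsk3b was lost in 8 of 18 alternatives, DESeq2, no filter, and without any siRNA 1 replicate or siRNA 2 replicate 2 or 3 (adjusted p up to 0.112). That of Atf1 was lost in 6, DESeq2 and without siRNA 1 replicate 1, 2 or 4 or siRNA 2 replicate 1 or 2 (adjusted p up to 0.106).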

How the results depend on the processing

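No S6 kinase gene was called for siRNA 1 against control under any alternative run. For siRNA 2 against control the count of called members, 1, became 0 without the filter on low counts, and ran from 0 to 2 with a library left out. It was 0 without control replicate 2 or 3 or siRNA 2 replicate 1 or 2, and 2 without siRNA 2 replicate 3. Between the siRNAs the count of 1 became 0 with DESeq2 and ran from 0 to 1 with a library left out. With replicate number as a block the counts were 0, 1 and 1. Replicate numbers did not pair samples, with a mean r of 0.00869 over 10 pairs of the same number and -0.0029 over 30 other pairs.

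Over all genes, DESeq2 called 958 genes for siRNA 2 and 740 between the siRNAs. With a library left out, the counts ran from 355 to 850 for siRNA 1, from 807 to 1667 for siRNA 2, and from 724 to 1374 between the siRNAs. The counts differed by more than 1.5 times without control replicates 2 (355) and 3 (447) and siRNA 1 replicate 2 (424) for siRNA 1. For siRNA 2 this held without control replicates 2 (914) and 3 (807) and siRNA 2 replicate 1 (1015), and between the siRNAs without siRNA 1 replicates 1 (738) and 2 (724) and siRNA 2 replicate 1 (757). The split of directions for siRNA 1, 316 lower and 435 higher, was 400 and 346 with TMM factors and 322 and 199 with DESeq2. For siRNA 2, 571 lower and 991 higher became 734 and 728 with TMM factors and 549 and 409 with DESeq2. The median of the members for siRNA 2 was 0.03 with TMM factors (0.02956) and with DESeq2 (0.02691), and 0.03 (0.03022) to 0.08 (0.08081) with a library left out. Left-out libraries gave -0.0636 to -0.00378 for siRNA 1 and 0.01612 to 0.04955 between the siRNAs. For siRNA 1 it was -0.07083 with TMM factors, -0.07476 with DESeq2 and -0.07597 with the block. The median of all genes moved as well. For siRNA 2 it went from 0.0289 to 0.00403 with TMM factors and 4.04e-05 with DESeq2. For siRNA 1 it went from 0.0244 to 0.00425 and 0.000485.

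Signs changed only for differences that were not called. For Rps6ka1 with siRNA 2 the value was -0.02391 with TMM factors, -0.02817 with DESeq2 and -0.006752 with the block, and -0.04977 to 0.04184 with a library left out. For siRNA 1, Atf1 was at -0.01685 with TMM factors and -0.02042 with DESeq2. Ranges with a library left out were -0.04836 to 0.02942 for Atf1, -0.02817 to 0.1228 for Rps6ka3 and -0.1823 to 0.0007755 for Rps6kl1 with siRNA 1, -0.05906 to 0.008932 for Pdpk1 with siRNA 2, and -0.03981 to 0.003241 for Rps6kc1 and -0.003043 to 0.2041 for Lats2 between the siRNAs. The cause was not tested. Of the members' values under alternatives, 520 kept their direction and side of the threshold. Few could lose a call, since only Rps6ka2 (siRNA 2 against control) and Rps6ka6 (between the siRNAs) were called. Each of these calls was lost in 5 of 18 alternatives, which makes up the 10 losses. The sign changed for 9 values and a call was gained for 1. The 18 include fits without a library of the group not compared, which left the log2 fold change nearly as it was. Among the 10 members Rps6kl1 had the fewest reads, 44 to 78 per library, and among the other named genes Lats2 had 17 to 39.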
